A study of Mus musculus with 12 samples.

Results

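Reporter-positive granulocyte-monocyte progenitors (GMP) were set against reporter-positive pre-pro-B cells: 2 arrays of each, 4 of the 12 arrays of the series, chosen by sample title with no measured value used. All cells were sorted from bone marrow of female C57BL/6 mice aged 16 weeks that carry a transgene in which enhancer and promoter sequence of Cebpa drives human CD4 (hCD4), a surface marker that cells of the mouse do not otherwise carry. The GMP and the pre-pro-B cells compared were both positive for hCD4, so the marker itself does not separate them. The remaining 8 arrays hold hCD4- pre-pro-B, hCD4+ pro-B, hCD4- pro-B and pre-B cells (2 each, the hCD4 status of the pre-B cells not being stated). They served to estimate the spread and, for hCD4- pre-pro-B cells, for values given side by side.

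GMP are marrow progenitors that give rise to neutrophils and monocytes, and the transcription factor C/EBPα, encoded by Cebpa, is required for their formation from earlier progenitors. Pre-pro-B cells are the earliest marrow cells sorted as B lineage, and depend on the interleukin 7 receptor and on the FLT3 receptor. In mouse marrow the surface proteins used to sort this stage are shared in part with plasmacytoid dendritic cells, which make type I interferon and depend on the E protein encoded by Tcf4.

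Amplified, Cy3-labelled RNA was read on 1-colour arrays, and a level is the log2 of the background-corrected signal minus the 75th percentile of its array, so that 0 is the brightness of that percentile. A change is the level in GMP minus that in hCD4+ pre-pro-B cells on the log2 scale, with the standard error (SE) of the fit after ±. "Rose" and "fell" are used where limma's adjusted p was under 0.05. Levels are relative to the other RNA of the same sample, and in such bulk samples fewer cells of a type cannot be told apart from less RNA per cell. The labels do not tie the replicate numbers to animals, so p-values measure only the spread between these samples. Replicates correlated at 0.990 in GMP and 0.991 in hCD4+ pre-pro-B arrays, and the means of the 2 groups at 0.895 over 18555 genes. Their 75th percentile was 946 and 654 in GMP and 722 and 734 in hCD4+ pre-pro-B arrays. Between 51.0% and 53.6% of the probes were well above background on these 4 arrays. The GMP arrays lie on the first of 3 slides, with the hCD4- pre-pro-B arrays. The hCD4+ pre-pro-B arrays lie on the second, so a slide effect and the difference between GMP and hCD4+ pre-pro-B cells cannot be told apart.

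The labels were first set against markers of both cell types, and not all of these went with the labels. Kit, the stem cell factor receptor, lay at 2.62 and 2.79 in GMP, against -1.46 and -1.09 in hCD4+ pre-pro-B arrays. Cd34 lay at 6.35 and 6.29 in GMP, against 0.71 and 1.78 in hCD4+ pre-pro-B arrays, and the Fc receptor gene Fcgr3 at 1.73 and 0.85, against -2.25 and -2.46. The arrays of the 2 groups did not overlap for these 3 genes, as for 76.9% of all genes, and the changes were 3.98 ± 0.18, 5.07 ± 0.97 and 3.64 ± 0.30 (adjusted p = 7.51e-07, 0.00239 and 2.08e-05). Il7r, the interleukin 7 receptor chain, and Ly6d, a surface protein that marks B-committed lymphoid progenitors, were not well above background on either GMP array. In hCD4+ pre-pro-B arrays Il7r lay at 3.43 and 3.56 and Ly6d at 7.78 and 7.82. Ebf1 and Pax5, which mark later B cells, were not well above background on any of the 4 arrays. Other markers, with values given further on, were mixed. Dntt and Flt3 were lower in GMP, as the labels ask. Cd93 and Cd24a, used to sort B progenitors and counted here with the pre-pro-B markers, were higher in GMP. What this says of the labels was not tested. Rag1 was dim in hCD4+ pre-pro-B arrays. Ly6a, by whose absence GMP are commonly sorted, lay far above the detection floor in GMP, though lower than in hCD4+ pre-pro-B arrays. The hCD4+ pre-pro-B arrays also held bright signal of plasmacytoid dendritic cell genes, described further on.

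Of 18555 genes, 5932 rose in GMP (32%) and 4145 fell (22.3%), 10077 in all (54.3%). Changes over 1 on the log2 scale were seen for 3099 genes that rose and 2635 that fell. At the far end the balance turned: 151 genes rose and 256 fell by over 5. These counts use fitted changes. Among all called genes, 575 higher and 867 lower ones were not well above background on any array of the dimmer group. The size of their fitted change is not exact, and what part this has in the balance was not tested. The direction of small changes depended on the scaling. Of the called genes 58.9% were higher in GMP here, 63.6% with scaling to the array median and 47.5% with cyclic loess (4627 higher, 5113 lower), and the median change of all genes was 0.12, 0.23 and -0.02 in these settings. The counts of list members below are to be read beside these shares, and a share near them says nothing of a list. For 76 of the higher and 83 of the lower genes neither group was well above background, and no fold is given for them.

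**Figure D1:**
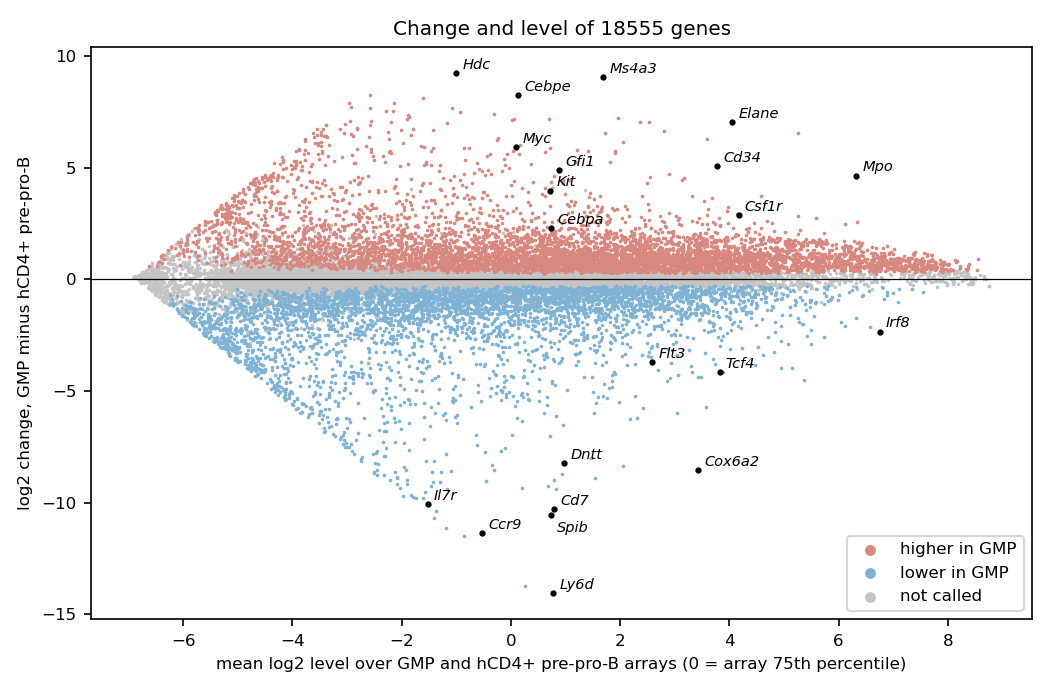
Log2 change (GMP minus hCD4+ pre-pro-B, vertical) against the mean log2 level over the 4 arrays (horizontal) for 18555 genes, coloured by whether the gene was called higher, lower or neither, with named genes in black. Ms4a3, Cebpe and Hdc stand at the top (9.06, 8.27 and 9.25), Ly6d at the bottom at -14.05, and the slanted edges on the left hold genes that were dark in 1 of the groups.

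Among genes measured in both groups, the largest rise was that of Ms4a3, a membrane protein of granulocyte-monocyte progenitors. It lay at 6.19 and 6.26 in GMP, against -3.73 and -1.95 in hCD4+ pre-pro-B arrays, a change of 9.06 ± 0.58 (adjusted p = 5.13e-06), and without replicate 1 or 2 of hCD4+ pre-pro-B the changes were 8.18 and 9.95. Mt1, a metallothionein, lay at 6.03 and 6.08 in GMP and -1.41 and -0.59 in hCD4+ pre-pro-B arrays. Gda, guanine deaminase, lay at 3.52 and 3.65 against -3.71 and -3.36, and the immunoglobulin superfamily gene Igsf6 at 4.24 and 4.34 against -3.38 and -2.38. These 3 rose by 7.06 ± 0.46, 7.13 ± 0.25 (6.01 by another probe) and 7.17 ± 0.38. Where no hCD4+ pre-pro-B array measured a gene above background, only a lower bound can be given, with the dim group set to the level of its dimmest probe still well above background (or to the probe's own level if higher). The largest such bounds were those of Hdc, Dmkn (at least 169.6-fold), Mgst1, a glutathione S-transferase of membranes (at least 138-fold), Gatm, which makes a precursor of creatine (at least 88.2-fold), the receptor gene Trem3 (at least 87.6-fold) and Lbp, whose product binds lipopolysaccharide (at least 84.8-fold). A gene well above background on 1 of the 2 arrays of its dimmer group was fitted as measured, and its change rests in part on an undetected value. This holds in GMP for Ccr7, Cd7, Cd74, Egfbp2, Epha2, Fyn, H2-Eb1 and Tnfrsf13c, and in hCD4+ pre-pro-B cells for Cebpe, Cpa3, Erg, Mcpt8, Prg2, S100a8 and Tal1. Igll1 was measured on 1 of 2 arrays in each of these groups. Without replicate 1 or 2 of hCD4+ pre-pro-B the fitted changes, which are no bounds, were 6.66 and 8.12 for Gatm and 7.27 and 8.52 for Trem3.

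In the other direction, Cd7, a surface protein of early lymphoid and natural killer cells, lay at -4.62 and -4.10 in GMP, against 5.78 and 6.09 in hCD4+ pre-pro-B arrays, and fell by 10.29 on the log2 scale (SE 0.40, adjusted p = 3.37e-07). Epha2, an ephrin receptor, lay at -4.24 and -4.67 in GMP, against 4.84 and 4.90 (change -9.32 ± 0.19). Each of these 2 was bright on both hCD4+ pre-pro-B arrays and near the detection floor in GMP. Ly6d, whose probe lies on chromosome 15 at 74592551 to 74592610 (mm9, from the array annotation), had the largest bound of all genes, at least 5128-fold lower in GMP. D13Ertd608e was at least 3216-fold lower, with levels of -6.74 and -6.47 in GMP and 7.18 and 7.08 in hCD4+ pre-pro-B arrays. Cd300lf, an inhibitory receptor of myeloid cells, was at least 332-fold lower, at -4.44 and -4.73 in GMP and 3.91 and 4.01 in hCD4+ pre-pro-B arrays (-5.33 by another probe). The kallikrein genes Klk1b5 (at least 481-fold lower) and Egfbp2 (change -9.05 ± 0.84, and -10.02 and -8.07 without GMP replicate 1 or 2) belong to a family of near-identical copies whose probes may share signal, so which copy was measured is uncertain.

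**Figure D2:**
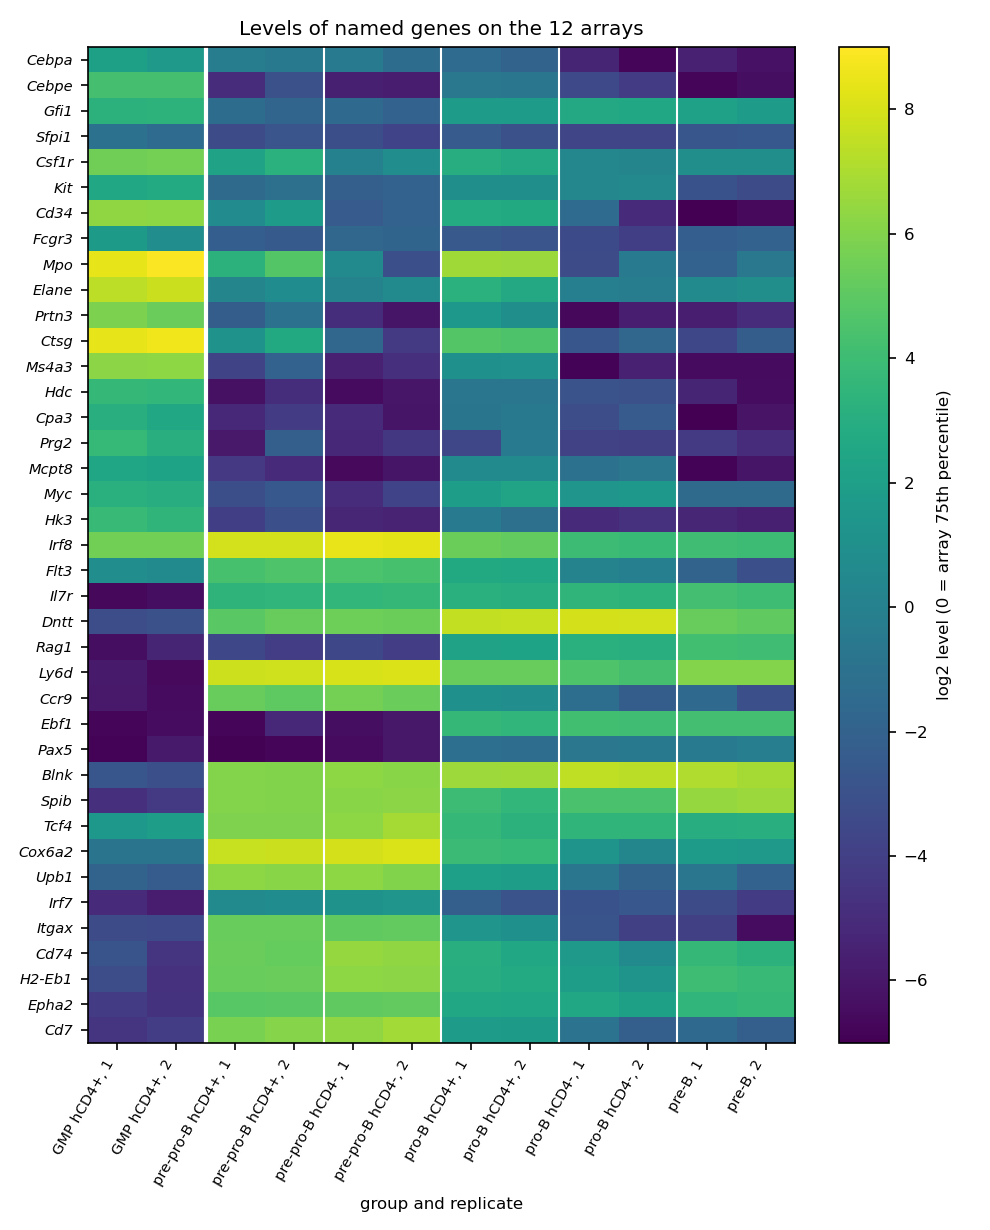
Log2 level (colour, 0 is the 75th percentile of the array) of 39 named genes (rows) on each of the 12 arrays (columns, grouped by cell type). Rows from Cebpa to Hk3 are brighter on the 2 GMP arrays at the left than on the hCD4+ pre-pro-B arrays, rows from Irf8 on are dimmer there except Ebf1 and Pax5, which are dark in both groups and bright or brighter in pro-B and pre-B arrays.

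Cebpa, whose regulatory sequence drives the reporter in both populations, lay at 2.07 and 1.68 in GMP, against -0.28 and -0.54 in hCD4+ pre-pro-B arrays, and rose by 2.29 ± 0.49 (adjusted p = 0.00426). It was above background on all 4 arrays, and the 2 groups did not overlap. Among the 16 myeloid transcription factors measured (of 18 listed), 8 rose and 4 fell, shares of 50% and 25%. Cebpe, the family member that acts in granulocyte maturation, moved far more than Cebpa: it lay at 4.27 and 4.28 in GMP, against -4.98 and -3.02 in hCD4+ pre-pro-B arrays (change 8.27 ± 0.53, and 7.29 and 9.25 without replicate 1 or 2 of hCD4+ pre-pro-B). Gfi1, a repressor needed for neutrophil development, lay at 3.31 and 3.34, against -1.35 and -1.78, a change of 4.89 ± 0.19 (adjusted p = 3.57e-07). Nfe2, known from megakaryocytes and erythroid cells, rose by 5.74 ± 0.33 and Cebpb, active in emergency granulopoiesis, by 2.01 ± 0.23. Sfpi1, the gene of PU.1 and now called Spi1, rose by 1.86 ± 0.29 (levels -1.01 and -1.39 in GMP and -3.37 and -2.76 in hCD4+ pre-pro-B arrays).

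The 4 factors of this list that fell have roles in dendritic cells and monocytes. Irf8, required for monocytes and several dendritic cell types, was bright in both groups, at 5.59 and 5.57 in GMP and 7.91 and 7.93 in hCD4+ pre-pro-B arrays, and fell by 2.34 (SE 0.12, adjusted p = 1.79e-06). Irf5 lay at -0.11 and -0.49 in GMP and 1.83 and 1.88 in hCD4+ pre-pro-B arrays. Id2, an inhibitor of E proteins, lay at -2.13 and -2.64 in GMP and 0.32 and 0.30 in hCD4+ pre-pro-B arrays. Their changes were -2.15 ± 0.21 and -2.69 ± 0.27, and that of Klf4, a monocyte factor, -1.28 ± 0.20. Zeb2 (0.11 ± 0.16, adjusted p = 0.605) and Cebpg (-0.29 ± 0.21, adjusted p = 0.275) were not called.

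**Figure D3:**
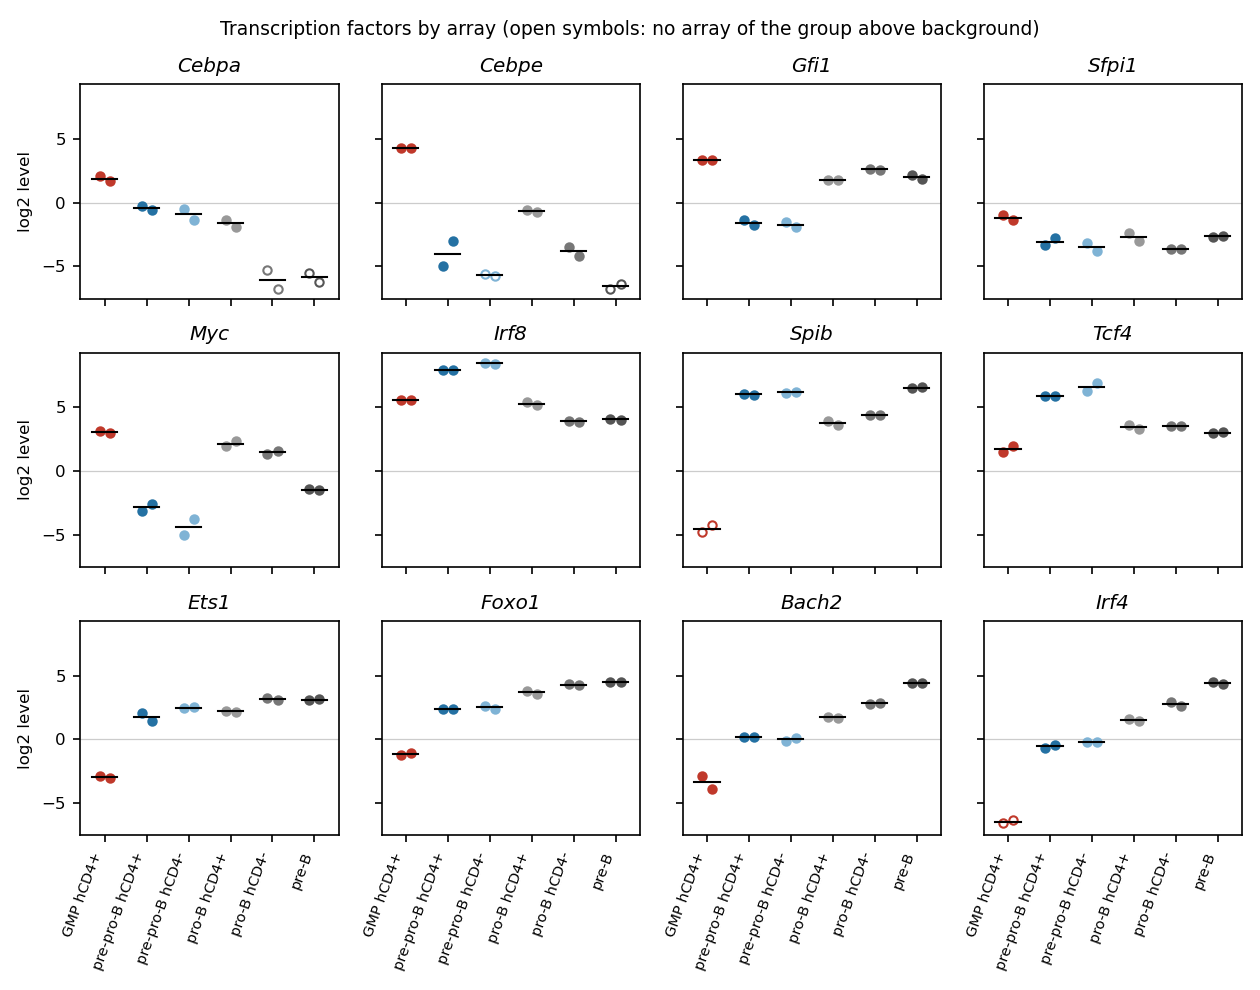
Log2 level of 12 transcription factor genes on each array (points) with the group mean (bars), by group, where an open symbol marks a group with no array above background. GMP (left of each panel) lie above hCD4+ pre-pro-B cells for Cebpa, Cebpe, Gfi1, Sfpi1 and Myc, and below them for Irf8, Spib, Tcf4, Ets1, Foxo1, Bach2 and Irf4.

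Receptors for myeloid growth factors were present in both populations. Csf1r, the receptor of macrophage colony-stimulating factor, lay at 5.54 and 5.67 in GMP, against 2.24 and 3.23 in hCD4+ pre-pro-B arrays, and rose by 2.87 ± 0.34 (adjusted p = 0.000162). Its other 2 probes gave smaller changes, 1.43 and 0.44. Csf2ra, the specific chain of the granulocyte-macrophage colony-stimulating factor receptor, rose by 1.04 ± 0.12. Csf2rb, the signalling chain which that receptor shares with the interleukin 3 and interleukin 5 receptors, fell by 1.30. The related receptor gene Csf2rb2 fell by 4.16 (2.73 by a second probe). Csf2rb2 lay at 1.33 and 1.14 in GMP, against 5.36 and 5.42 in hCD4+ pre-pro-B arrays. Ifngr1, a chain of the interferon gamma receptor, rose by 2.74 ± 0.16, and Tnfrsf1b, a receptor of tumour necrosis factor, by 2.15 ± 0.20. Il10ra, of the interleukin 10 receptor, fell by 3.29. The Csf3r probe lay at 6.36 and 6.39 in GMP and 6.66 and 6.46 in hCD4+ pre-pro-B arrays (-0.18 ± 0.19, adjusted p = 0.463). It was about as bright in the other groups, including the pre-B arrays (7.13 and 7.14), so the value does not show that the transcript was level. It was called lower with quantile normalization (-0.78, adjusted p = 0.0101), cyclic loess (-0.76, adjusted p = 0.0178), normexp with quantile normalization (-0.90, adjusted p = 0.00108) and in the authors' deposited table (-0.95). In all, 9 of 16 measured members of this list rose and 4 fell.

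Genes of the primary (azurophil) granule, which neutrophil precursors fill with proteases and myeloperoxidase, were all measured, and 12 of 12 rose, with a median change of 4.52 against 0.12 for all genes. The neutrophil elastase gene Elane lay at 7.43 and 7.72 in GMP, against 0.30 and 0.75 in hCD4+ pre-pro-B arrays (7.05 ± 0.26, adjusted p = 2.89e-07). Prtn3, which encodes proteinase 3, lay at 5.83 and 5.32, against -2.25 and -1.06 (7.23 ± 0.55). Ctsg, which encodes cathepsin G, lay at 8.4 and 8.64, against 1.24 and 2.72 (6.54 ± 0.83). In each case the hCD4+ pre-pro-B arrays stood above background but far below GMP.

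Mpo, myeloperoxidase, had a larger SE than those 3 genes. It lay at 8.41 and 8.89 in GMP and 3.28 and 4.71 in hCD4+ pre-pro-B arrays, a change of 4.66 ± 1.26 (adjusted p = 0.0136). A second probe gave 7.38. The call of the first probe ended without GMP replicate 2 (4.42, adjusted p = 0.0617) and without hCD4+ pre-pro-B replicate 1 (3.94, adjusted p = 0.082). Without hCD4+ pre-pro-B replicate 1 or 2 the changes of Ctsg were 5.80 and 7.28 and those of Prtn3 6.63 and 7.83. Summed over the 12 genes on the linear scale, levels were 1155 and 1371 in GMP and 37.6 and 59.6 in hCD4+ pre-pro-B arrays, the higher of the last pair being replicate 2. In hCD4- pre-pro-B cells the sums were 33.2 and 26.0. Prtn3 was not well above background on either hCD4- pre-pro-B array, and Ctsg was on 1 of them (-1.71 and -4.26). Elane lay at 0.15 and 0.65 in hCD4- pre-pro-B cells and did not differ between hCD4+ and hCD4- pre-pro-B cells beyond its error, at 0.13 ± 0.26 (adjusted p = 0.772).

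Promoter sequence is shown for 3 of these genes because their promoters share 1 short motif. The letters GAGGAAGT, a core that PU.1 and related ETS factors are known to bind, were searched on both strands of the 250 bases before each start site in RefSeq (build GRCm38.p6). They occur in 2.44% of 32851 promoters. Of the 10 primary granule genes found there, 4 held them in any of their promoters (Elane, Prtn3, Mpo and Ctsc, named here for the match). Counted in the same way, the letters occur in 0 of 14 plasmacytoid dendritic cell genes, 0 of 14 early lymphoid genes and 2 of 18 ribosome biogenesis genes. The share of all promoters counts promoters and those of the lists count genes, so the former is not like for like with the latter. The motif was chosen with the members known. In the sequences, given on the strand of the gene, capitals mark the match, which begins 85 bases before the start site in Elane (chr10:79886062-79886311, + strand), 95 in Prtn3 (chr10:79879417-79879666, + strand) and 224 in Mpo (chr11:87793534-87793783, + strand). A match describes the letters and shows no binding.
Elane: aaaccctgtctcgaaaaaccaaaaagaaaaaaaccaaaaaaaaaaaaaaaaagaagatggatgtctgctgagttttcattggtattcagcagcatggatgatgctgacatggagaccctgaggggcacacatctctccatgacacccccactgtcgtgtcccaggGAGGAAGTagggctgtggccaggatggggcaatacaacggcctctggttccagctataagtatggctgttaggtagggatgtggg
Prtn3: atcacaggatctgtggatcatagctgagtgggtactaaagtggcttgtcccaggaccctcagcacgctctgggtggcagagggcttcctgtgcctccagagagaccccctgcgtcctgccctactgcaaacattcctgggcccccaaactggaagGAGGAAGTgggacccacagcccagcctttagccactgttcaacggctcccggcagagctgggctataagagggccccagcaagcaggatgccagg
Mpo: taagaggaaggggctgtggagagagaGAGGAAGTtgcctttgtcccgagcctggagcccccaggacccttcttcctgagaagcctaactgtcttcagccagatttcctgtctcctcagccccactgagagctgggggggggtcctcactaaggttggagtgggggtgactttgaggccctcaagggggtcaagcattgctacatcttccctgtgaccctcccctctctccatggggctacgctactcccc

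Of 21 neutrophil secondary granule and late genes, which include receptors and other genes not of granules, 15 were measured. Of these 10 rose, none fell and the median was 4.10. Hp, haptoglobin, lay at 5.81 and 5.99 in GMP, against -1.79 and -0.53 in hCD4+ pre-pro-B arrays (7.06 ± 0.38; 6.43 and 7.69 without replicate 1 or 2 of hCD4+ pre-pro-B). Pglyrp1, a peptidoglycan-binding granule protein, lay at 0.88 and 1.02 in GMP and was not well above background in hCD4+ pre-pro-B arrays (at least 48.2-fold). Anxa1 rose by 5.68 ± 0.22 and the leukotriene receptor gene Ltb4r1 by 6.23 ± 0.57. S100a8, which encodes a chain of calprotectin, lay at 1.58 and 0.57, against -5.74 and -4.32 (6.11 ± 1.58, adjusted p = 0.011), a call that ended without GMP replicate 1 (5.60, adjusted p = 0.0578) and without hCD4+ pre-pro-B replicate 1 (5.40, adjusted p = 0.065). The secondary granule genes Ltf, Ngp and Retnlg were not well above background on any of the 4 arrays, and Camp lay at -3.31 and -3.30 in GMP and -2.74 and -3.27 in hCD4+ pre-pro-B arrays (-0.30 ± 0.41, adjusted p = 0.573). With normexp background correction and quantile normalization the median of the list was 1.58.

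Genes of basophils, mast cells and eosinophils had the highest median of the 32 lists, 6.43: 13 of 15 measured members (of 16) rose and none fell. Hdc, the enzyme that makes histamine, lay at 3.66 and 3.59 in GMP and was at least 309-fold higher than in hCD4+ pre-pro-B arrays. Cpa3, the mast cell carboxypeptidase, lay at 3.1 and 2.54, against -5.16 and -4.22 (7.51 ± 0.48). Mcpt8, a basophil protease, lay at 2.40 and 2.28, against -4.33 and -5.02 (7.01 ± 0.30). For the eosinophil genes Prg2, major basic protein, and Epx, eosinophil peroxidase, GMP had 3.73 and 3.07 for Prg2 and 0.82 and 0.30 for Epx. The hCD4+ pre-pro-B arrays had -5.89 and -2.14 for Prg2 (7.42 ± 1.25; 5.54 and 9.29 without replicate 1 or 2 of hCD4+ pre-pro-B) and no Epx above background (at least 36.9-fold). Gata2, a regulator of these lineages and of stem cells, was at least 31.3-fold higher in GMP. The 15 members summed to 50.9 and 41.0 in GMP and 0.480 and 1.31 in hCD4+ pre-pro-B arrays. Without replicate 1 or 2 of hCD4+ pre-pro-B the fitted changes were 8.56 and 9.94 for Hdc and 6.03 and 7.46 for Epx. Whether a few cells of these types or a low level in many gave this signal was not tested. Normexp with quantile normalization put the median at 3.29.

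Among 19 measured stem and multipotent progenitor genes (of 23), 10 rose and 4 fell. Beside Kit and Cd34, Prom1 rose at least 19.7-fold, Erg by 4.53 ± 0.51 (3.85 and 5.21 without replicate 1 or 2 of hCD4+ pre-pro-B) and Hlf by 2.87 ± 0.59. Ly6a (Sca-1), by whose absence GMP are commonly sorted, lay at 1.66 and 1.62 in GMP, against 3.73 and 3.68 in hCD4+ pre-pro-B arrays (-2.06 ± 0.37), and Hoxa5 and Hoxa7 fell by 2.25 and 0.97. Meis1 (0.23 ± 0.14, adjusted p = 0.219) and Hoxa9 (0.15 ± 0.21, adjusted p = 0.599) were not called. Erythroid genes showed 4 rises and 2 falls among 14 measured, with Gata1 up by 3.38 ± 0.52, Tal1 by 5.19 ± 0.31 and the transferrin receptor gene Tfrc down by 2.80. Of 9 megakaryocyte genes, Nfe2, Itga2b (at least 3.63-fold, fitted changes 3.19 and 4.48 without GMP replicate 1 or 2) and Gp9 (at least 5.8-fold) rose and the integrin gene Itgb3 fell by 2.90. Pf4 did not differ beyond its error (0.20 ± 0.86, adjusted p = 0.867).

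Of 20 monocyte and macrophage genes measured (of 25 listed), 9 rose and 4 fell. F13a1, a clotting factor chain made by monocyte precursors, lay at 6.11 and 6.17 in GMP, against -0.60 and -0.43 in hCD4+ pre-pro-B arrays (6.66 ± 0.13, adjusted p = 1.92e-08). The chemokine gene Ccl9 rose by 5.77 ± 0.44 and the lipopolysaccharide co-receptor gene Cd14 by 3.73 ± 0.40. Mpeg1, a pore protein of macrophages, lay at 3.01 and 2.93 in GMP, against 6.92 and 6.91 (-3.95 ± 0.50), and Ctss, cathepsin S of antigen-presenting cells, at 3.04 and 3.0, against 6.02 and 6.07 (-3.02 ± 0.10). Lgals3 fell by 1.43. Cx3cr1 lay at 2.60 and 2.64 in GMP and 2.44 and 2.87 in hCD4+ pre-pro-B arrays, which overlap (-0.04 ± 0.30, adjusted p = 0.924).

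The phagocyte oxidase and Fc receptor genes split evenly, 6 rises and 6 falls among 12. The cytosolic oxidase subunit Ncf4 rose by 1.35 ± 0.11, while the membrane subunits Cybb and Cyba fell by 3.48 and 0.74. Cybb lay at -1.23 and -0.93 in GMP and 2.38 and 2.43 in hCD4+ pre-pro-B arrays. The adaptor Tyrobp fell by 2.11 and Rac2 by 1.25. Tlr1 (at least 5.98-fold, fitted changes 2.73 and 5.0 without replicate 1 or 2 of hCD4+ pre-pro-B) and Tlr2 (0.92 ± 0.15), which act on bacterial lipoproteins at the surface, rose, and Tlr7 (-3.01 ± 0.17) and Tlr12 (-4.84 ± 0.13), which act inside the cell, fell. A second Tlr7 probe gave -6.84. Of the 12 measured members of the Toll-like receptor list 5 rose and 4 fell, and without hCD4+ pre-pro-B replicate 2 only 3 rose.

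**Figure D4:**
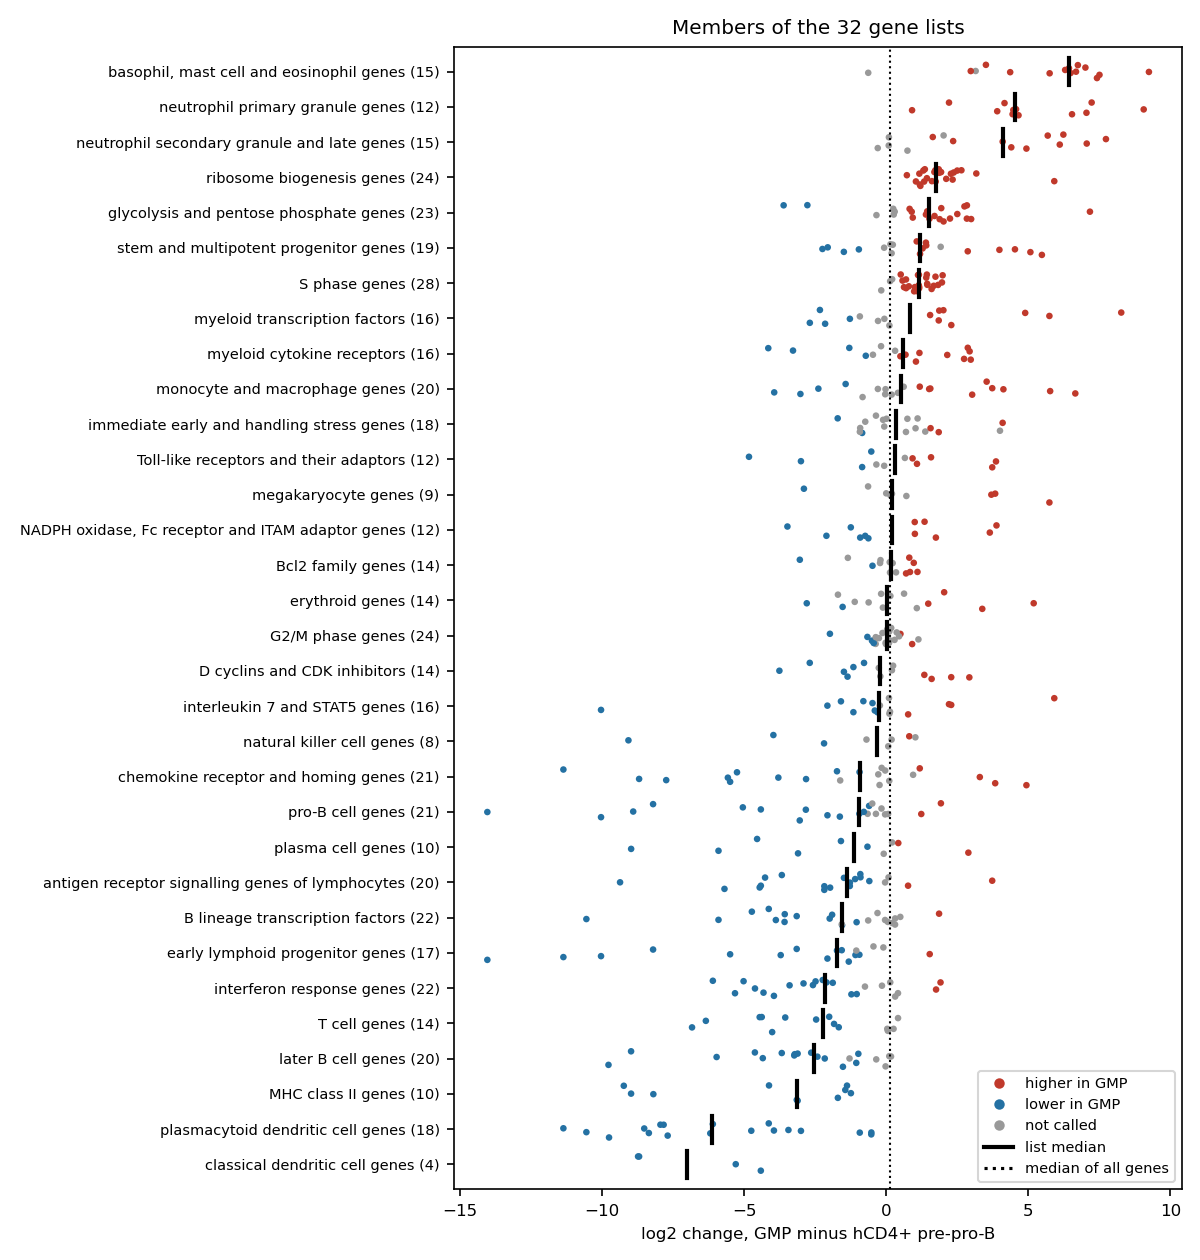
Log2 change (GMP minus hCD4+ pre-pro-B, horizontal) of every measured member (points) of the 32 gene lists (rows, number measured in brackets), with the list median (bar) and the median of all genes (dotted line). Granule, basophil and ribosome biogenesis lists lie right of the line and dendritic cell, MHC class II and later B cell lists left of it.

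Early lymphoid progenitor genes were mostly lower in GMP: of 17 measured (of 18 listed), 13 fell, 1 rose and the median was -1.74. Il7r, probed on chromosome 15 at 9435976 to 9436035 (mm9), lay at -6.68 and -6.42 in GMP, against 3.43 and 3.56 in hCD4+ pre-pro-B arrays, at least 259-fold lower. Dntt, terminal transferase, which adds bases at antigen receptor joints, lay at -3.22 and -3.04, against 4.91 and 5.25, and fell by 8.21 (SE 0.14, adjusted p = 1.17e-08). Flt3, the receptor through which lymphoid progenitors receive FLT3 ligand, lay at 0.83 and 0.64 in GMP, against 4.31 and 4.59 (-3.72 ± 0.33), and another of its probes gave -1.57. The chemokine receptor genes Ccr9 (at least 819.5-fold, and -8.54 by another probe) and Ccr7 (-5.50 ± 0.32) were lower as well. Rag1, of the antigen receptor recombinase, was dim in hCD4+ pre-pro-B arrays (-3.51 and -4.08) and not well above background in GMP (at least 1.66-fold lower, with -0.42 and no call from another probe). Cd27 was the member that rose (1.53 ± 0.25).

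Of 22 transcription factors of the B lineage, 12 fell and 1 rose, each counted at its brightest probe. For 2 members another probe disagreed. Bcl11a, also in the early lymphoid list, gave -3.16 at the probe used and 0.21 at another (adjusted p = 0.706). Lef1 gave -1.57 and 0.17 (adjusted p = 0.447). Ebf1, which commits cells to the B lineage, lay at -6.76 and -6.49 in GMP and -6.80 and -5.18 in hCD4+ pre-pro-B arrays. Pax5, which holds that commitment, lay at -6.83 and -5.83 in GMP and -6.88 and -6.76 in hCD4+ pre-pro-B arrays. Neither was well above background on these arrays or called (adjusted p = 0.251 and 0.211), though single arrays decide this: Ebf1 gave -1.45 (adjusted p = 0.00139) without hCD4+ pre-pro-B replicate 1 and Pax5 gave 1.00 (adjusted p = 0.0106) without GMP replicate 1. Spib, an ETS factor of B cells and plasmacytoid dendritic cells, lay at -4.83 and -4.28 in GMP, against 6.05 and 5.97, at least 1428-fold lower. Irf4 (at least 15.8-fold), Ets1 (-4.73 ± 0.19), Tcf4 (-4.14 ± 0.22, and -5.59 by another probe) and Id3 (-3.89 ± 0.33) were lower in GMP too. Foxo1 and Bach2 were named after their values were seen. Foxo1, which lies upstream of Il7r and Rag1 in B progenitors, lay at -1.26 and -1.11 in GMP, against 2.40 and 2.40 (-3.58 ± 0.13), and Bach2 at -2.91 and -3.86, against 0.20 and 0.18 (-3.58 ± 0.26). Myb, needed by progenitors of many lineages, was the one that rose (1.86 ± 0.12). Tcf3, which encodes the E proteins E12 and E47, lay at 1.62 and 1.92 in GMP and 1.51 and 1.62 in hCD4+ pre-pro-B arrays (0.21 ± 0.19, adjusted p = 0.405).

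Pro-B cell genes fell in 13 of 21 cases and rose in 2. Blnk, the adaptor below the pre-B cell receptor, lay at -2.72 and -3.11 in GMP, against 6.06 and 5.95 in hCD4+ pre-pro-B arrays (-8.91 ± 0.15, adjusted p = 1.17e-08). Bst1 (at least 6.6-fold, and -2.12 by another probe) and the kinase gene Blk (at least 5.53-fold) were lower as well. Cd79a, a chain of the B cell receptor complex, lay at -4.15 and -3.96 in GMP and -2.76 and -2.08 in hCD4+ pre-pro-B arrays (-1.64 ± 0.29), with 0.02 from another probe and no call for the mean of its probes (-0.81, adjusted p = 0.0975). The surrogate light chain genes Igll1 (-0.17 ± 0.30, adjusted p = 0.667) and Vpreb1 (-0.37 ± 0.22, adjusted p = 0.2) did not pass, but Igll1 did without hCD4+ pre-pro-B replicate 1 (-0.66, adjusted p = 0.0495). Cd93 and Cd24a, surface proteins used to sort B progenitors, were the 2 that rose, by 1.92 ± 0.16 and 1.23 ± 0.11. Of 20 later B cell genes, 15 fell and none rose. Cd74, the class II invariant chain, fell by 8.99 (-9.86 and -8.11 without GMP replicate 1 or 2), Fcrla was at least 222-fold lower, and Tnfrsf13c, a receptor of the B cell survival factor BAFF, fell by 5.98 (1.46 by a second probe). Cd72 fell by 4.35.

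The receptor signalling genes of lymphocytes showed 16 falls and 2 rises among 20. The protein kinase C gene Prkcb lay at -0.22 and -0.36 in GMP, against 4.05 and 3.91 in hCD4+ pre-pro-B arrays (-4.27 ± 0.11). The Src family kinase genes Fyn and Lck fell by 5.70 and 4.46. Dok3, an adaptor that restrains signalling, rose by 3.73 ± 0.30. Btk rose by 0.77 ± 0.17, a call lost with cyclic loess (0.41, adjusted p = 0.0825) and in a fit to these 4 arrays alone (adjusted p = 0.0557). Of 16 genes of interleukin 7 and STAT5 signalling, 8 fell and 4 rose; with 1 array left out the falls were 4 in 3 of 4 cases. Of this list Stat5a (0.09 ± 0.15, adjusted p = 0.627), Stat5b (-0.23 ± 0.11, adjusted p = 0.127) and Jak3 (0.11 ± 0.33, adjusted p = 0.804) were not called.

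All 18 plasmacytoid dendritic cell genes fell, with a median of -6.15, and they summed to 108 and 111 in GMP and 846 and 798 in hCD4+ pre-pro-B arrays. Cox6a2, a cytochrome oxidase subunit of muscle and of these cells, lay at -0.83 and -0.84 in GMP, against 7.67 and 7.71 (-8.52 ± 0.26, adjusted p = 1.11e-07). Upb1 lay at -1.93 and -2.34, against 6.28 and 6.18 (-8.36 ± 0.46), and Tcf4 at 1.51 and 1.99, against 5.88 and 5.91. Irf7, the inducer of type I interferon genes, was at least 37.5-fold lower, and Lag3 at least 152-fold. Klk1 was at least 196-fold lower, with the same doubt about copies as for Klk1b5. Siglech, named here because its probes disagree, fell by 0.53 at its brightest probe, which lay at 6.31 and 6.27 in GMP and 6.82 and 6.81 in hCD4+ pre-pro-B arrays, and 2 other probes gave -6.62 and -13.11. In hCD4- pre-pro-B arrays Cox6a2 lay at 7.94 and 8.10 and Spib at 6.14 and 6.22, as bright as in the hCD4+ arrays or brighter. Several genes of the B, MHC class II and interferon lists (among them Spib, Irf7, Tcf4, Cd74 and Ccr9) are known from plasmacytoid dendritic cells as well as from B cells, and what part such cells have in the falls of those lists was not tested.

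Sequence is shown for the Ccr9 and Blnk promoters because each holds CACCTG, a core that E proteins are known to bind. The letters occur on either strand of 17.22% of all promoters. The lists were counted by gene found in RefSeq, with a match in any promoter of the gene. The letters occur in 6 of 14 plasmacytoid dendritic cell genes and 4 of 14 early lymphoid genes. They occur in 1 of 10 primary granule genes and 0 of 18 ribosome biogenesis genes. The pro-B list, which holds Blnk, was not counted. Capitals mark the match (its reverse complement in Ccr9), which begins 85 bases before the start site in Ccr9 (chr9:123766961-123767210, + strand) and 160 in Blnk (chr19:40994222-40994471, - strand). The same limits hold as for the first motif.
Ccr9: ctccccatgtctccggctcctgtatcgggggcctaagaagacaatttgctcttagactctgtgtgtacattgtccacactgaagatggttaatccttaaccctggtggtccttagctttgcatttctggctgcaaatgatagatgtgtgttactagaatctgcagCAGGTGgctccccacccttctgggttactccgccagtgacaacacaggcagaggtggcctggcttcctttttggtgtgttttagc
Blnk: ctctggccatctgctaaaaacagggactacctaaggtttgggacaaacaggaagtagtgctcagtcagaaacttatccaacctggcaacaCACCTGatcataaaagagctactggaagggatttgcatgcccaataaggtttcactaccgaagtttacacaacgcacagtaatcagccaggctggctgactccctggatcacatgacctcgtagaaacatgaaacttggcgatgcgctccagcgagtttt

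Of 12 listed classical dendritic cell genes 4 were measured and fell, which says nothing of the other 8. The integrin gene Itgax (CD11c) lay at -3.35 and -3.49 in GMP, against 5.27 and 5.30 in hCD4+ pre-pro-B arrays (-8.70 ± 0.68), and Cd209a was at least 94.8-fold lower (-3.54 by another probe). These 4 summed to 1.77 and 1.84 in GMP, against 80.4 and 81.1 in hCD4+ pre-pro-B cells. T cell genes summed to 4.82 and 6.10 in GMP, against 32.1 and 32.8 in hCD4+ pre-pro-B cells. Their part in the falls of other lists was not tested. Clec10a and Clec9a fell by 4.42 and 5.30, while Xcr1, Zbtb46 and Batf3, which mark classical dendritic cells more narrowly, were not kept in any group. Of 8 measured natural killer genes (of 16 listed) 3 fell, 1 rose and 4 were not called, with a median of -0.31. They summed to 0.821 and 0.753 in GMP and 9.658 and 10.676 in hCD4+ pre-pro-B arrays, nearly all of the higher sums being Klrd1, which lay at -6.04 and -5.62 in GMP and 3.18 and 3.32 in hCD4+ pre-pro-B arrays (at least 219-fold lower), while Ncr1 was not kept. Of 14 measured T cell genes, 10 fell and none rose. Thy1 lay at -2.70 and -3.23 in GMP, against 3.39 and 3.39 (-6.35 ± 0.17), and Cd8a was at least 29.7-fold lower (-3.67 by another probe). The T cell receptor chain gene Cd3d and Tcf7 were not well above background on any of the 4 arrays.

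At the probe used for each, class II antigen presentation genes all fell, 10 of 10, with a median of -3.14. For H2-Ob that probe gave -1.38, but another gave 0.14 (adjusted p = 0.616) and 1 more gave -1.05. H2-Eb1 lay at -3.19 and -4.69 in GMP, against 5.25 and 5.36 in hCD4+ pre-pro-B arrays (-9.24 ± 0.42; -10.00 and -8.49 without GMP replicate 1 or 2), and H2-Ab1 at 1.87 and 1.79, against 5.99 and 5.93 (-4.13 ± 0.12). Ciita, the master activator of this gene set, was at least 7.09-fold lower. Interferon response genes fell in 15 of 22 cases, with a median of -2.17. The antiviral GTPase genes Mx1 and Mx2 fell by 4.62 and 5.03, Usp18 by 4.32, and Ifi44 was at least 30.9-fold lower. Oas1a (1.75 ± 0.15) and Rtp4 (1.91 ± 0.25) rose.

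Among homing receptors, 10 of 21 fell and 4 rose. Cxcr3 was at least 215-fold and Ccr6 at least 11.2-fold lower in GMP, whereas Cxcr2, the receptor neutrophils follow, was at least 7.69-fold higher and the integrin gene Itga6 rose by 3.29 ± 0.19. Cxcr4, which holds progenitors in marrow, was not called (-0.16 ± 0.16, adjusted p = 0.423). Of 10 plasma cell genes 6 fell, among them Sdc1 (-4.55 ± 0.18) and Mzb1, on the array under the name 2010001M09Rik (at least 138-fold), and Fkbp11 rose (2.89 ± 0.53; 3.70 and 2.08 without replicate 1 or 2 of hCD4+ pre-pro-B).

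S phase and G2/M genes were counted apart. Of 28 S phase genes 25 rose and none fell, with a median of 1.14. Cdt1, which licenses replication origins, lay at 5.21 and 5.09 in GMP, against 3.07 and 3.26 in hCD4+ pre-pro-B arrays (1.98 ± 0.15). Gins1 rose by 1.96 ± 0.14, Dut by 1.73 ± 0.12 and the DNA polymerase gene Pola1 by 1.67 ± 0.13. Of 24 G2/M genes, 2 rose, 4 fell and 18 were not called, with a median of 0.01. Cdk1 lay at 2.08 and 2.03, against 1.21 and 1.08 (0.91 ± 0.11). Its other probes gave 0.38, with no call (adjusted p = 0.0964), and 1.57. Plk1 (-0.02 ± 0.16, adjusted p = 0.913), Ccnb1 (0.07 ± 0.16, adjusted p = 0.746) and Top2a (0.03 ± 0.41, adjusted p = 0.961) did not differ beyond their errors. The sign of the G2/M median depended on the scaling: it was -0.32 with cyclic loess (10 falls, 1 rise) and 0.11 with scaling to the array median (1 fall, 2 rises), while the S phase median stayed between 0.77 and 1.24 in the settings run. Against hCD4- pre-pro-B cells, with the same GMP arrays, 26 of 28 S phase and 21 of 24 G2/M genes rose, with medians of 3.07 and 2.28. In that comparison 35.6% of all genes rose and 29.6% fell (65.2% in all). Between hCD4+ and hCD4- pre-pro-B cells, Cdk1 was higher in hCD4+ arrays by 3.24 ± 0.11 (adjusted p = 9.54e-06), in a comparison with 16.7% of genes called.

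**Figure D5:**
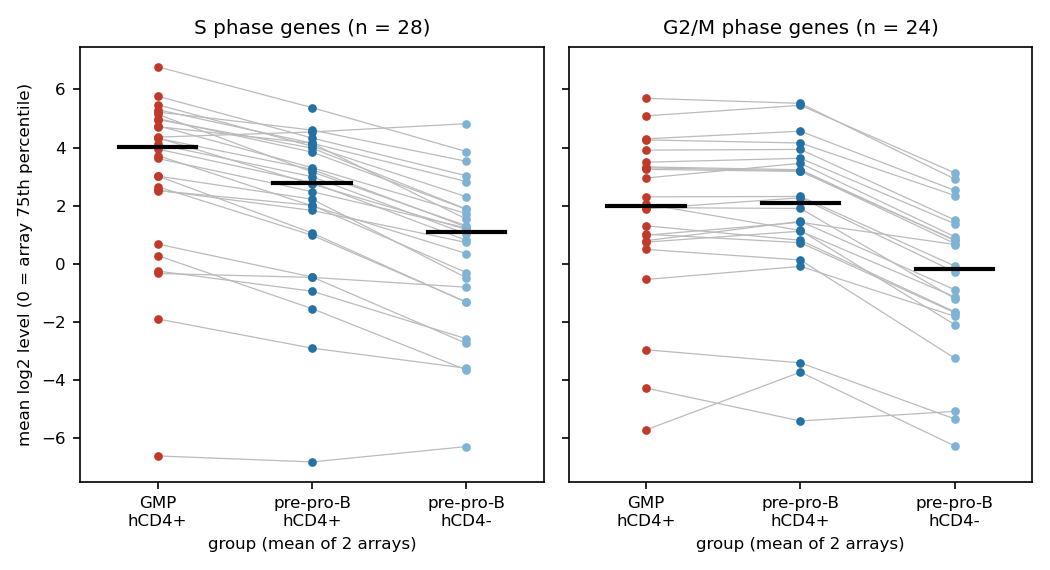
Mean log2 level (vertical) of each S phase gene (left panel, n = 28) and G2/M phase gene (right panel, n = 24) in GMP, hCD4+ pre-pro-B and hCD4- pre-pro-B cells, with lines joining the same gene and bars at the median. S phase medians are 4.03, 2.77 and 1.11, and G2/M medians 2.00, 2.09 and -0.18 in that order of groups.

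Regulators of entry into the cycle moved in both directions, 4 up and 6 down among 14. Ccnd2 and Cdk6 rose by 2.29 ± 0.25 and 2.92 ± 0.35, and Ccnd1 and Ccnd3 fell by 3.76 and 1.16. Ccnd1 lay at 1.05 and 1.05 in GMP, against 4.85 and 4.78 in hCD4+ pre-pro-B arrays. The inhibitor genes Cdkn2d, Cdkn2c and Cdkn1b fell by 2.70, 1.49 and 1.36, and Cdkn1a rose by 1.60 ± 0.27. Myc, a driver of growth and ribosome production, lay at 3.16 and 2.94 in GMP, against -3.17 and -2.57, and rose by 5.92 ± 0.37 (adjusted p = 4.88e-06). All 24 ribosome biogenesis genes, a list that holds Myc, rose, with a median of 1.73. The largest after Myc were Wdr12 (3.17 ± 0.12), the RNA polymerase I subunits Polr1b (2.65 ± 0.20) and Polr1a (2.5 ± 0.14) and Gar1 (2.38 ± 0.13). The range of the list median over the settings run was 1.35 to 1.84.

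Glycolytic and pentose phosphate genes rose in 17 of 23 cases and fell in 2, with a median of 1.52. Hk3, the hexokinase of myeloid cells, lay at 3.79 and 3.48 in GMP, against -4.00 and -3.07 in hCD4+ pre-pro-B arrays (7.17 ± 0.33, adjusted p = 7.93e-07). Hk2 rose by 2.99 ± 0.33, Pgam1 by 2.84 ± 0.17, Tpi1 by 2.75 ± 0.16 and Pgd, of the pentose phosphate pathway, by 2.84 ± 0.14. The glucose transporter gene Slc2a3 and the aldolase gene Aldoc went the other way, by -2.78 ± 0.14 and -3.62 ± 0.23. With cyclic loess 4 members fell. Of 14 measured Bcl2 family genes 5 rose and 2 fell: Bak1 rose by 0.97 ± 0.18, Bcl2l1 by 0.81 ± 0.15 and Bid by 0.70 ± 0.15, and Bmf was at least 4.71-fold lower. Bcl2 itself lay at 2.03 and 2.09 in GMP and 1.80 and 2.06 in hCD4+ pre-pro-B arrays (0.13 ± 0.26, adjusted p = 0.71).

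Immediate early and stress genes, which respond to handling, summed to 347 and 194 in GMP, against 269 and 266 in hCD4+ pre-pro-B cells. Egr1 lay at 3.38 and 1.15 in GMP, against 0.73 and 0.11 in hCD4+ pre-pro-B arrays (1.85 ± 0.67, adjusted p = 0.046), a call that ended without GMP replicate 1 (0.73, adjusted p = 0.27) and without either hCD4+ pre-pro-B array. Ier3 lay at 1.73 and 0.26, against -2.77 and -3.43 (4.10 ± 0.60; 3.36 and 4.83 without GMP replicate 1 or 2). Over the 18 measured members 3 rose and 2 fell. Without GMP replicate 1 there were 1 rise and 5 falls, and without GMP replicate 2 there were 5 rises and 1 fall. What part sample handling has in these values was not tested.

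The change against hCD4- pre-pro-B cells, which lie on the slide of the GMP arrays, is given side by side for the genes the comparison turns on. The 2 comparisons share the GMP arrays. For Cebpa it was 2.79 ± 0.49 against 2.29 ± 0.49 above, and for Gfi1 5.08 ± 0.19 against 4.89 ± 0.19. For Blnk it was -9.12 ± 0.15 against -8.91 ± 0.15, for Dntt -8.57 ± 0.14 against -8.21 ± 0.14 and for Cox6a2 -8.86 ± 0.26 against -8.52 ± 0.26. Mpo gave 9.91 ± 1.26 against 4.66 ± 1.26. Cebpe and F13a1 were not well above background on either hCD4- pre-pro-B array, so no change against those cells is given for them. Nor was Lyz1, a lysozyme gene of the granule list named after its values were seen, which lay at 3.39 and 3.22 in GMP and -1.14 and -1.21 in hCD4+ pre-pro-B arrays (4.47 ± 0.13).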

How the data were processed

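RNA of 12 samples (6 groups of 2) was measured on 1-colour arrays read with Feature Extraction 10.7.3.1, per the file headers. The deposited intensity used was the processed signal, background-corrected by that software. The authors' deposited table holds log2 values with 1 decimal whose distributions match between arrays; its normalization method is not given in the sources used here, and it served as an alternative.

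Control spots and 2469 outlier spot values were left out. Levels are log2(processed signal) minus the array's 75th percentile. Probes well above background on both arrays of any group were kept (23297), and the brightest probe stood for each of 18555 genes. All 12 arrays were fitted with limma 3.58.1 (lmFit, eBayes) in R 4.3.3, with Benjamini-Hochberg adjustment and a threshold of 0.05. The code of the fit was run on simulated levels with far fewer changed genes than were called here, which does not test the calls themselves. Array number limits the precision.

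Named were the 10 largest changes each way, the 6 largest bounds each way, a fixed set of lineage genes, and up to 5 members per list and direction; members that did not pass may be named with values. Some genes that this rule names are not reported here. Members and lists were chosen with earlier results of these data known. Deviations of same-numbered GMP and hCD4+ pre-pro-B arrays correlated at 0.0968, so the numbers were not taken as pairs.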

Additional observations from a re-analysis of the deposited data

How the results depend on the processing

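Without a minimum on the size of change, the number of called genes ranged from 8353 to 10444 over the settings run, against 10077. It was 10444 with the replicate number as a block (6110 higher, 4334 lower), though the labels do not show that the numbers pair the samples. Asking in addition for a change over 1 left 5734 genes, 3099 higher and 2635 lower. Without 1 of the 4 arrays the calls numbered 8353 to 8774, with 4890 to 5227 higher and 3463 to 3706 lower. Genes dim in both groups changed sign. With levels set to the detection floor, Ebf1 and Socs2 each gave 0.12 and Mycn 0.0489. With 1 array left out at a time, Ebf1 ranged from -1.45 to 0.17, Igll1 from -0.66 to 0.32 and Pax5 from -0.0087 to 1.00; the sign turned without hCD4+ pre-pro-B replicate 2 for the first 2 and without GMP replicate 2 for Pax5. The values of turned sign did not pass the test, while the far end of each of these 3 ranges did (without hCD4+ pre-pro-B replicate 1 for the first 2, without GMP replicate 1 for Pax5). The cause was not tested. Of 206 named genes that were called, 22 lost the call without 1 of the arrays and 29 moved by over 1.5 times. The limits are 2 arrays a group, slide and group that cannot be told apart, and genes near background, for which bounds are given where no array of a group measured them and fitted changes where 1 did.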

Other observations

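Gene families grouped by symbol, a choice made after the data were seen, were counted in the same fit, in which 32% of genes rose and 22.3% fell. Of 75 mitochondrial ribosomal protein genes 65 rose in GMP and 1 fell, with a median change of 0.96. Genes with symbols of complex I of the respiratory chain showed 35 rises and no fall among 41, with a median of 0.94. The assembly factors Ndufaf1 to Ndufaf4 are counted among them. Of 38 proteasome genes 32 rose and 1 fell (median 0.81). Aminoacyl-tRNA synthetase genes, whose products charge transfer RNA, rose in 24 of 33 cases and fell in 2 (median 0.85). Genes with symbols of cytosolic large ribosomal subunit proteins rose in 48 of 59 cases and fell in 1 (median 0.60). This count includes pseudogenes such as Rpl21-ps1 and Rpl26-ps4, whose probes may share signal with the parent genes. The families were counted in this scaling alone.

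Other families were lower in GMP. Of 8 Gimap genes, which encode GTPases of lymphocytes, 5 fell and none rose (median -2.75). Of 40 Trim genes 23 fell and 9 rose (median -0.71), and of 6 Schlafen genes 4 fell and 1 rose (median -1.92). Zinc finger genes of the Zfp series were not among these families. They showed 64 rises and 72 falls among 314 (median -0.04). Their share of falls was near the 22.3% of all genes, and their share of rises was under the 32% of all genes.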
